A study of Homo sapiens with 8 samples.

Results

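Regions of H3K27 acetylation at the ends of long noncoding RNA (lncRNA) genes were compared between the *HDAC1* overexpressing line MP2_HDAC1_OE and its control MP2_NTC. Peaks of either list that overlapped by 1 bp or more were joined into 1 region. A region was kept when it overlapped the window from 2 kb outside to 1 kb inside an end of a RefSeq lncRNA gene (GRCh38.p14) and overlapped no such window of a protein-coding gene. This left 1308 of 18678 merged regions, at the ends of 1075 of 18303 lncRNA genes (5.87%). Of the other regions, 10288 lay at an end of a coding gene, 2430 of them also at an lncRNA end, and 7082 lay at neither. Among the merged regions the choice used position alone and no signal value. The rule was set with earlier results of these data known.

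Both lines derive from MIA PaCa-2, an epithelial line from a human pancreatic carcinoma, and both carry the lentiMPHv2 and lentiSAMv2 vectors of a CRISPR activation system. The sgRNA in MP2_HDAC1_OE targets *HDAC1*, and the sgRNA in MP2_NTC is a non-targeting control. Each line had 2 H3K27ac samples and 2 control samples without antibody, and whether a line is 1 clone is not given in the sources used here. The authors deposited 1 peak list per line, pooled over both samples, without counts of reads, so the depth is unknown, there is no replicate error and no test between lines was possible. Intervals below are 95% Wilson or Newcombe intervals that cover counting error only.

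Histone deacetylase 1, the product of *HDAC1*, removes acetyl groups from histones and is mostly known as a co-repressor. Acetylation of lysine 27 of histone H3 marks active promoters and enhancers. LncRNA genes are transcribed from promoters of the same general build as those of coding genes. Some act through their transcript, some host small nucleolar RNAs (snoRNAs) or miRNAs in their introns, and some are mainly a sign of an active enhancer or of a promoter that fires in both directions.

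The promoters of 7 lncRNAs are shown because together they cover the outcomes of the comparison. They run from 250 bases before to 50 bases after the annotated start, are written 5′ to 3′ on the strand of the lncRNA, and come from RefSeq (GRCh38.p14). Capitals mark matches on either strand to GGGCGG (the GC box bound by the SP family), CCAAT, TGA-any base-TCA (AP-1), TGACGTCA (CRE) and CCGGAAG (ETS). These motifs do not overlap in the promoters shown. Of the 11461 lncRNA promoters in the table, 25.4% hold a GC box, 34.8% a CCAAT box, 10.5% an AP-1 match, 1.13% a CRE and 5.74% an ETS match. A match is a match of letters only.

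*NORAD* (chr20:36050911-36051210, minus strand) had a shared region at the same rank in both lines. *SNHG33* (chr3:183447358-183447657, plus strand) had a shared region ranked higher in MP2_HDAC1_OE, and *LINC00886* (chr3:156817013-156817312, minus strand) a shared region ranked higher in MP2_NTC. *PAX8-AS1* (chr2:113235277-113235576, plus strand) had regions unique to MP2_HDAC1_OE. *LUCAT1* (chr5:91314353-91314652, minus strand) and *OSER1-DT* (chr20:44210710-44211009, plus strand) had regions unique to MP2_NTC, and the *OSER1-DT* region (chr20:44210257-44210604) lies before the promoter shown and does not overlap it. *MALAT1* (chr11:65497488-65497787, plus strand) had regions of all 3 classes around a promoter that no region overlapped.
NORAD: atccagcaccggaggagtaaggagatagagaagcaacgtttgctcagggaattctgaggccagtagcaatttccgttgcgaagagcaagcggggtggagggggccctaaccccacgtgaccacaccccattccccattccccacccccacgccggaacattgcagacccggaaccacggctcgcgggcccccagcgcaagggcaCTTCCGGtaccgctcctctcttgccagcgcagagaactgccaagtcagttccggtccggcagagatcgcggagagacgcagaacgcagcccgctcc
SNHG33: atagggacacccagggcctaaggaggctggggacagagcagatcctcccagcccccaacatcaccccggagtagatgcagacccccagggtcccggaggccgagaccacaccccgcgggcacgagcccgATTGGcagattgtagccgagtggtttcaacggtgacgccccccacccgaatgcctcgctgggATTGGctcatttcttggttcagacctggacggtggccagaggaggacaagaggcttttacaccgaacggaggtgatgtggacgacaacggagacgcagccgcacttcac
LINC00886: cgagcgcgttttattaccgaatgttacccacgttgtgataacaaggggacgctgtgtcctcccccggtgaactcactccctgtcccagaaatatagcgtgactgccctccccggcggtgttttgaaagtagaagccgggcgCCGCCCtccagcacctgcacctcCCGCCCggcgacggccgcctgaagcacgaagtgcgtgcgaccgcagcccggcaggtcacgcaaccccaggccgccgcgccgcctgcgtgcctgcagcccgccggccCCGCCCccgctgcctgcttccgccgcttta
PAX8-AS1: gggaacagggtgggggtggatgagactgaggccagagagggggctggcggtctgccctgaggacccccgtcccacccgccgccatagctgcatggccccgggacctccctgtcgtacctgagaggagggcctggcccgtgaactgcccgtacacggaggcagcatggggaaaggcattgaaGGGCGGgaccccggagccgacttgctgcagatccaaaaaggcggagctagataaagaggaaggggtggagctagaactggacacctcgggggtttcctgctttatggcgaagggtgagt
LUCAT1: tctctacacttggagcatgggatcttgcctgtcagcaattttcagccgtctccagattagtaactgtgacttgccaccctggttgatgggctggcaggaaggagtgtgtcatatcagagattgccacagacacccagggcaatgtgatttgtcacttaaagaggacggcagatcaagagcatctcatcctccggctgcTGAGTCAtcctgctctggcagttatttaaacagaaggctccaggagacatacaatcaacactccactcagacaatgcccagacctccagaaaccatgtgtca
OSER1-DT: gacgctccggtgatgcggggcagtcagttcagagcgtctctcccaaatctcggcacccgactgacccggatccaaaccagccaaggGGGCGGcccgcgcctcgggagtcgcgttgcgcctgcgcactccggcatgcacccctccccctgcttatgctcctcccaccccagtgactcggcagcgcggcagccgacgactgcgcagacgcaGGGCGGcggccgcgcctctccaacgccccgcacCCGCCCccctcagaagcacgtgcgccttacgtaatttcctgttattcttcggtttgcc
MALAT1: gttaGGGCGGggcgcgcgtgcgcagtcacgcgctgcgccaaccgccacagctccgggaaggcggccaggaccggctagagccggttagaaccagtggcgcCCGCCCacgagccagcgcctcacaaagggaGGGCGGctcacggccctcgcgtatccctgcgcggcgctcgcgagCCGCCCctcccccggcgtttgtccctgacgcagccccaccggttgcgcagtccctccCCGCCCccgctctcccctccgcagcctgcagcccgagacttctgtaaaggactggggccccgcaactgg

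The promoters differ in base composition. Those of *MALAT1*, *OSER1-DT* and *LINC00886* had a GC content of 73.7%, 68.3% and 67.7%, with 37, 34 and 35 CpG sites. *LUCAT1* stood apart, with a GC content of 49.7%, 3 CpG sites and 1 AP-1 match. *NORAD* held 1 ETS match, *SNHG33* 2 CCAAT boxes, *PAX8-AS1* 1 GC box, *OSER1-DT* and *LINC00886* 3 GC boxes each, and *MALAT1* 5.

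Regions at lncRNA ends were less often shared between the lines than regions at coding gene ends, and more often than regions at neither. Of the 1308 regions, 636 were shared (48.6%, interval 45.9 to 51.3), 400 were unique to MP2_HDAC1_OE (30.6%, 28.1 to 33.1) and 272 were unique to MP2_NTC (20.8%, 18.7 to 23.1). Over all merged regions, 28.6% were unique to MP2_HDAC1_OE and 20.7% to MP2_NTC, so the unique shares at lncRNA ends were close to this background. At coding ends 62.8% were shared, 20.2% were unique to MP2_HDAC1_OE and 17.0% to MP2_NTC. The shared share at lncRNA ends minus that at coding ends was -14.2 points (interval -17.1 to -11.3). The share unique to MP2_HDAC1_OE was 10.4 points above it (7.84 to 13.1), and that unique to MP2_NTC 3.81 points above (1.58 to 6.21). At neither kind of end 33.5% were shared, 15.1 points fewer (interval of the difference 12.2 to 17.99).

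Among unique regions at lncRNA ends, 59.5% belonged to MP2_HDAC1_OE (55.8 to 63.2), close to the 58.0% over all merged regions. The share was 54.3% at coding ends, a difference of 5.22 points (1.15 to 9.20), and 60.8% at neither (difference -1.27, -5.27 to 2.64). The MP2_HDAC1_OE list was also the longer one, with 25045 peaks against 22569. With the longer list cut to equal length by signal the share was 56.3%. By lncRNA gene, 611 of 1075 had a shared region, 258 had only regions unique to MP2_HDAC1_OE, 176 only regions unique to MP2_NTC, and 30 had unique regions of both lines and none shared.

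**Figure D1:**
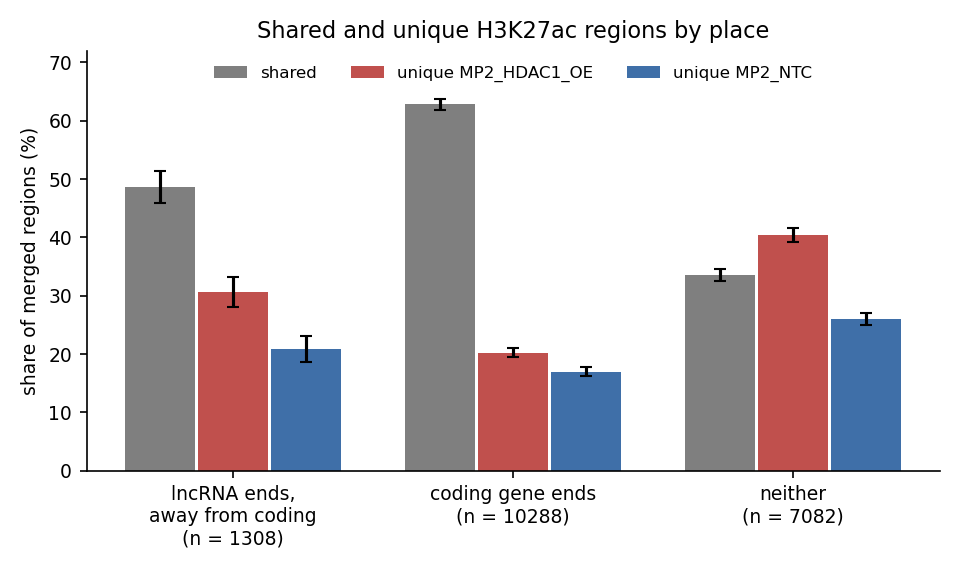
Share of merged H3K27ac regions (y axis, %) that were shared (grey), unique to MP2_HDAC1_OE (red) or unique to MP2_NTC (blue), by place. Error bars are 95% Wilson intervals for counting error. The shared share was 48.6% at lncRNA ends, between 62.8% at coding gene ends and 33.5% at neither.

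A unique region was not always isolated. Of the 400 regions unique to MP2_HDAC1_OE, 153 (38.3%) had a peak of MP2_NTC within 2 kb, and 112 of the 272 unique to MP2_NTC (41.2%) had a peak of MP2_HDAC1_OE within 2 kb. Over all unique regions these shares were 37.8% and 40.5%. Most peaks had a width of exactly 820 bp (56.4% in MP2_HDAC1_OE and 61.7% in MP2_NTC) and adjoining intervals can belong to 1 acetylated stretch. When peaks were also joined over gaps of up to 2 kb, a setting added after these neighbours were seen, 923 regions remained at lncRNA ends. Then 60.9% were shared, 22.9% were unique to MP2_HDAC1_OE and 16.3% to MP2_NTC. Coding ends had 74.7% shared regions under this join, so lncRNA ends again had the lower share.

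The strength of a region was given as a percentile, the share of peaks in the same list with a lower signal than its strongest peak. The authors' signal values have no known common scale, so ranks rather than sizes were compared between the lines. At lncRNA ends the median percentile was 58.1 in MP2_HDAC1_OE (quartiles 35.1 and 80.04, n = 1036 regions) and 62.2 in MP2_NTC (38.4 and 81.2, n = 908). The background is that of all merged regions, with medians of 62.8 in MP2_HDAC1_OE and 62.6 in MP2_NTC. Coding ends ranked higher, with medians of 71.9 and 70.3, and regions at neither ranked lower, with 48.0 and 46.2. Shared regions at lncRNA ends had medians of 71.7 in MP2_HDAC1_OE and 71.1 in MP2_NTC. Unique regions there had medians of 39.1 and 39.3 in their own lists. Over all merged regions the medians were 74.6 and 71.8 for shared regions and 41.6 and 39.1 for unique ones. Shared regions at lncRNA ends held a median of 3 peaks and unique ones 1. The percentile is that of the strongest peak, so the contrast is not independent of the number of peaks. In MP2_HDAC1_OE 12.8% of the regions at lncRNA ends stood at percentile 90 or more against 20.6% at coding ends, and in MP2_NTC 13.4% against 19.7%. Over all merged regions the shares at percentile 90 or more were 15.2% and 15.1%.

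The shared regions had on balance the same rank in both lines. The percentile in MP2_HDAC1_OE minus that in MP2_NTC had a median of 0.57 points (quartiles -13.2 and 14.1, n = 636). A difference of 20 points or more with the higher rank in MP2_HDAC1_OE was found at 126 regions (19.8%, 16.9 to 23.1), against 19.7% of all shared regions. The higher rank was in MP2_NTC at 112 regions (17.6%, 14.8 to 20.8), against 14.7% of all shared regions. The strongest summits of both lines lay within 250 bp of each other at 490 of the 636 regions (77.0%). When peaks within 2 kb of the region were counted too, 99 of the 126 and 89 of the 112 still differed by 20 points or more.

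**Figure D2:**
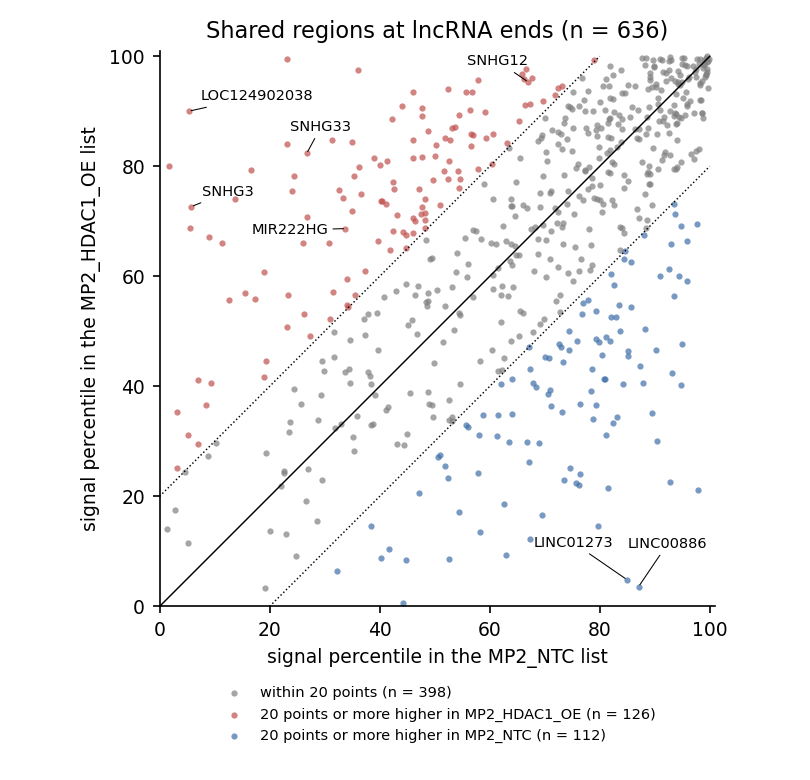
Signal percentile of the 636 shared regions at lncRNA ends in the MP2_NTC list (x axis) and the MP2_HDAC1_OE list (y axis), 1 point per region, with the solid line at equal ranks and dotted lines 20 points to either side. Most points (398) lie within the dotted lines, with 126 above them and 112 below.

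Regions were found more often at the start of an lncRNA than at its 3′ end. Strand is known for 11462 of the 18303 lncRNA genes. Of their windows that were clear of coding genes, 571 of 8616 at starts had a region (6.63%, 6.12 to 7.17) against 241 of 9839 at 3′ ends (2.45%, 2.16 to 2.77). Regions at starts alone were shared in 51.3% of cases (335 of 653) and regions at 3′ ends alone in 39.8% (76 of 191). Summits of these regions within 2 kb of a start had a median position of 75.5 bp downstream in MP2_HDAC1_OE (n = 1022) and 121 bp downstream in MP2_NTC (n = 957). The bin just before the start held fewer summits than the bins on either side. The 200 bp before it held 5.87% of the MP2_HDAC1_OE summits and 8.15% of the MP2_NTC summits, and the 200 bp after it held 14.1% and 14.6%. The bin from 400 to 200 bp before the start held 11.1% and 10.3%.

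**Figure D3:**
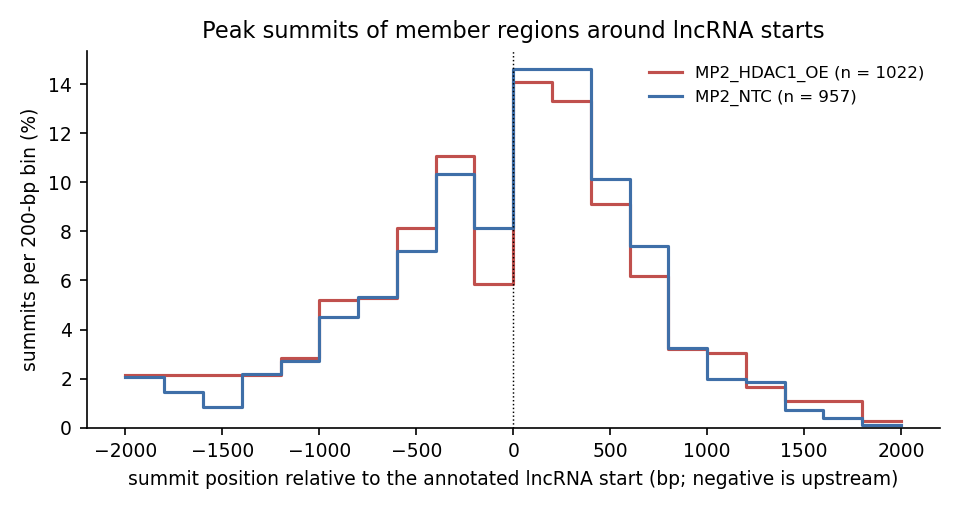
Position of peak summits around annotated lncRNA starts (x axis, bp, negative is upstream) as the percent of summits in each 200-bp bin (y axis), for MP2_HDAC1_OE (red, n = 1022) and MP2_NTC (blue, n = 957). Both lines have a dip in the bin before the start, at 5.87% and 8.15%, and their highest bins after it.

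The starts with a region had GC-rich promoters. Among starts whose window was clear of coding genes, the median GC content was 61% at the 571 with a region and 46% at the 8044 without one. The CpG ratio, observed over expected from the base content, had medians of 0.636 and 0.218. A GC box stood in 48.7% of the former (44.6 to 52.8) and 12.6% of the latter (11.9 to 13.3), an ETS match in 11.6% and 2.97%, and a CRE in 3.85% and 0.497%. AP-1 matches were about equally common, in 12.4% and 12.1%. The CCAAT box was rarer at starts with a region, 29.4% against 36.6%. Promoters of these lncRNAs with a shared region held a GC box in 54.8% (49.6 to 59.9, n = 354), those with only regions unique to MP2_HDAC1_OE in 34.5% (26.5 to 43.5, n = 116) and those with only regions unique to MP2_NTC in 46.1% (36.1 to 56.4, n = 89). A region overlapped the 300-base promoter itself in 81.4%, 68.1% and 68.5% of these. The base content of these classes differed too. In the same order, the median GC content was 62.7%, 59% and 61.3%, and the median CpG ratio 0.716, 0.498 and 0.618. No motif share was adjusted for base content.

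Names tell something of an lncRNA's kind. Genes with placeholder symbols (LOC) made up 535 of the 1075 lncRNAs, antisense genes (-AS) 210, intergenic genes (LINC) 190 and divergent genes (-DT) 31. Many divergent genes start within the window of their coding partner, and 5.24% of all 592 had a region here. Antisense regions were 48.2% shared (131 of 272), LINC regions 55.3% (140 of 253), LOC regions 46.1% (303 of 657) and divergent regions 41.2% (14 of 34). The intervals of these 4 shares overlap one another, those of LINC (49.2 to 61.3) and LOC (42.3 to 49.9) only barely. Overlap does not show that shares are equal, and no interval of these differences was computed. Of all 1308 regions, 517 overlapped the body of a coding gene, and there start sites inside the gene are not removed by the rule. These were 45.8% shared (41.6 to 50.2), against 50.4% (47.0 to 53.9) of the 791 outside coding genes.

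**Figure D4:**
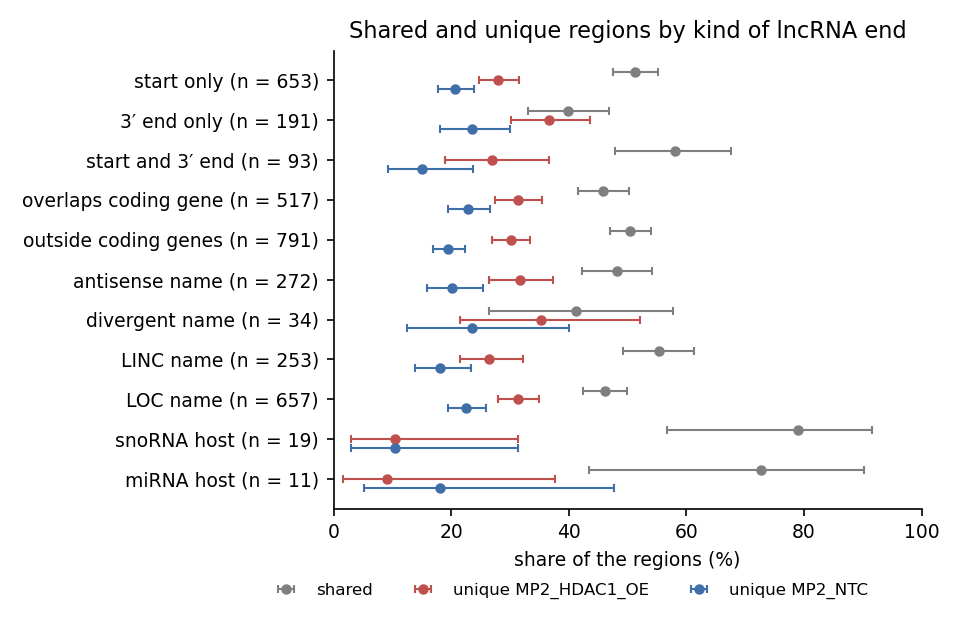
Share of regions (x axis, %) that were shared (grey), unique to MP2_HDAC1_OE (red) or unique to MP2_NTC (blue), by the lncRNA end they overlap, by overlap with a coding gene body and by the kind of name. Points are shares and bars 95% Wilson intervals for counting error. SnoRNA hosts have the highest shared share, 78.9% of 19 regions.

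The snoRNA host genes, whose introns carry the snoRNAs that guide modification of ribosomal and spliceosomal RNA, had regions more often than other lncRNAs and shared them more often. Hosts were taken by symbol (SNHG genes, *GAS5*, *ZFAS1* and *DANCR*), so any other host counts among the other lncRNAs. Of 32 such genes 14 had a region (43.8%), against 5.81% of the other lncRNA genes, a difference of 37.9 points (interval 22.4 to 54.9). Of their 19 regions 15 were shared (78.9%, 56.7 to 91.5), against 48.2% of the other 1289 regions, a difference of 30.8 points (8.32 to 43.6). Their median percentile was 72.7 in MP2_HDAC1_OE and 75.5 in MP2_NTC. *SNHG11* had a signal of 93.0 in MP2_HDAC1_OE, above 94.4% of the list, and 88.7 in MP2_NTC, above 89.5%. *SNHG32* stood at percentiles 88.2 and 91.4, *SNHG17* at 82.0 and 91.6, *SNHG26* at 79.1 and 77.3, *SNHG30* at 65.3 and 75.5, and *SNHG21* at 66.7 and 48.3. None of these 6 differed by 20 points.

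*SNHG33*, *SNHG12*, *SNHG5* and *SNHG3* ranked higher in MP2_HDAC1_OE. The region at the start of *SNHG33* (chr3:183446987-183448345), which covers the promoter shown above, had a signal of 70.7 in MP2_HDAC1_OE (percentile 82.4) and 36.9 in MP2_NTC (26.7), a difference of 55.6 points. The summits lay 31 bp apart. *SNHG12* (chr1:28581308-28582800) had 96.7 (95.3) and 60.6 (67.0). At *SNHG5* a shared region (chr6:85678110-85679377) stood at percentiles 66.4 and 39.7, beside a weak region unique to MP2_HDAC1_OE at percentile 5.83. At the 3′ end of *SNHG3*, inside *RCC1*, the values were 60.8 (72.7) in MP2_HDAC1_OE and 17.6 (5.78) in MP2_NTC. With peaks within 2 kb the *SNHG3* percentiles became 92.9 and 67.2.

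*SNHG15* and *DANCR* ranked higher in MP2_NTC. The strongest *SNHG15* region (chr7:44986108-44986683) had a signal of 56.1 in MP2_HDAC1_OE (percentile 66.4) and 109 in MP2_NTC (95.9). A neighbouring shared region stood at percentiles 39.2 and 78.4, and a further one, unique to MP2_NTC, at 28.6. *DANCR*, known for holding back differentiation, had 42.1 (41.2) and 74.8 (81.0) at its start (chr4:52712280-52713294), with summits 10 bp apart. A further region at its 3′ end was unique to MP2_NTC (percentile 46.2), with the nearest MP2_HDAC1_OE peak 8660 bp away. *SNHG16* was mixed, with percentiles 75.9 and 42.6 at one shared region and 81.3 and 97.0 at the next. At *GAS5* the only region lay at the 3′ end, also at an end of *GAS5-AS1*. It was unique to MP2_HDAC1_OE and weak (percentile 7.39), with peaks at percentiles 90.4 in MP2_HDAC1_OE and 85.2 in MP2_NTC within 2 kb.

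Of 87 genes whose symbols name them as miRNA hosts, 10 had regions (11.5%), against 5.87% of all lncRNA genes. All 11 regions are given here, 8 of them shared (72.7%, 43.4 to 90.3). That interval includes the 48.6% shared among all regions at lncRNA ends. The region at *MIRLET7A1HG*, host of a let-7 cluster, was the strongest, with a signal of 109 in MP2_HDAC1_OE (percentile 97.7) and 120 in MP2_NTC (97.4). *MIR222HG*, host of miR-221 and miR-222, had 57.6 (68.7) and 40.7 (33.8) at its start, with summits 1248 bp apart. *MIR23AHG*, host of the miR-23a, miR-27a and miR-24 cluster, ranked the other way, with 41.5 (39.9) and 61.8 (68.5). *MIR130AHG* stood at percentiles 93.6 and 46.0, *MIR1915HG* at 92.9 and 71.9, *MIR762HG* at 70.6 and 46.1, *MIR550A3HG* at 93.2 and 84.7 and *MIR181A2HG* at 40.4 and 54.6. A second *MIR762HG* region was unique to MP2_NTC (percentile 28.5), as was a region at the ends of both *MIR5689HG* and *LINC00518* (90.6). The *MIR202HG* region was unique to MP2_HDAC1_OE (percentile 28.3).

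The mature miRNAs below (RefSeq, 5′ to 3′) lie inside the first 3 of these hosts, with the seed, bases 2 to 8, in capitals. They are shown because 1 host region stands before several miRNAs. The *MIR222HG* pair share the seed GCUACAU and the let-7 members share GAGGUAG, while the *MIR23AHG* cluster holds 3 different seeds. The data measure acetylation at the host and not the level of any miRNA.
hsa-let-7a-5p: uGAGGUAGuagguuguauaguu
hsa-let-7f-5p: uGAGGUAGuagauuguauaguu
hsa-let-7d-5p: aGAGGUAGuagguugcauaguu
hsa-miR-221-3p: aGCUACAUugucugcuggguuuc
hsa-miR-222-3p: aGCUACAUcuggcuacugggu
hsa-miR-23a-3p: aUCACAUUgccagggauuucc
hsa-miR-27a-3p: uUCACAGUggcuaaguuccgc
hsa-miR-24-3p: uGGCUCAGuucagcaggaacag

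Well-studied lncRNAs were followed one by one. Of a list of 150 lncRNA genes, 40 had a region, while 5.87% of all lncRNA genes had one. Some of them entered the list because the study's own expression table names them, so the list is no independent evidence. Their 65 regions comprised 38 shared, 17 unique to MP2_HDAC1_OE and 10 unique to MP2_NTC. The snoRNA hosts above are part of this list and contribute 19 regions, 15 of them shared. Over all merged regions 50.7% were shared, 28.6% unique to MP2_HDAC1_OE and 20.7% unique to MP2_NTC. MP2_HDAC1_OE had 58.0% of all unique regions.

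*NORAD* and *MALAT1* had strong regions in both lines. *NORAD*, which binds Pumilio proteins, had a shared region over its promoter (chr20:36050447-36051067) with a signal of 100 in MP2_HDAC1_OE and 111 in MP2_NTC, above 96.2% of either list. Its summits lay 42 bp apart. At *MALAT1*, a component of nuclear speckles, the region just after the start (chr11:65497816-65498992) had a signal of 128 in MP2_HDAC1_OE (percentile 99.4) and 89.0 in MP2_NTC (89.7), with summits 9 bp apart. The stretch before the start (chr11:65496644-65497263) was unique to MP2_HDAC1_OE at percentile 70.0. A region at the 3′ end was unique to MP2_NTC at 52.2, 2211 bp from the nearest MP2_HDAC1_OE peak.

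*NEAT1*, the scaffold of paraspeckles, had 4 adjoining regions within chr11:65420734-65424409. The strongest was shared (chr11:65421336-65422323), with a signal of 51.4 in MP2_HDAC1_OE (percentile 59.2) and 110 in MP2_NTC (95.9), a difference of -36.7 points. The next in order was unique to MP2_NTC at percentile 89.3, and the first was unique to MP2_HDAC1_OE at 76.6. These regions lie 41 bp and 81 bp from a peak of the other line. The last region was shared, at percentiles 36.7 in MP2_HDAC1_OE and 49.0 in MP2_NTC. With peaks within 2 kb of the strongest region counted, its percentiles became 79.1 and 96.2, a difference under 20 points. Both lines thus marked *NEAT1* and *MALAT1*. At *MALAT1* the region just after the start differed by 9.66 points, also under 20.

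*PAX8-AS1*, antisense to the transcription factor gene *PAX8*, carried regions in a single line. Its start had 2 regions unique to MP2_HDAC1_OE, with signals of 45.7 (percentile 48.6) and 54.9 (64.6). The second (chr2:113235442-113236466) overlaps the promoter shown. The nearest MP2_NTC peak lay 7662 bp away. *LUCAT1*, a stress-induced lncRNA, had a region over its promoter (chr5:91313689-91314714) unique to MP2_NTC at a signal of 55.2 (percentile 59.8). The nearest MP2_HDAC1_OE peak lay 1176 bp away. With peaks within 2 kb counted, the *LUCAT1* percentiles became 82.2 in MP2_HDAC1_OE and 69.9 in MP2_NTC, so both lines had peaks near this start.

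*LINC00941* and *LINC01588* ranked higher in MP2_HDAC1_OE. The shared region at the *LINC00941* start (chr12:30795227-30796656) had a signal of 74.3 in MP2_HDAC1_OE (percentile 85.1) and 54.9 in MP2_NTC (59.2). Beside it, 92 bp from an MP2_HDAC1_OE peak, a region at the same start (chr12:30794608-30795134) was unique to MP2_NTC at percentile 47.1. The shared region at the *LINC01588* start had 73.8 (84.8) and 50.9 (52.7). *NRAV*, a regulator of antiviral genes, had 42.1 (41.1) and 18.8 (6.996), with a further region unique to MP2_HDAC1_OE at percentile 51.1. *LINC01010* had no shared region, with 2 unique to MP2_HDAC1_OE (40.0 at its start and 47.8 at its 3′ end) and 1 unique to MP2_NTC (23.8 at its start).

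The imprinted and antisense genes *KCNQ1OT1* and *VPS9D1-AS1* ranked higher in MP2_NTC. *KCNQ1OT1*, which silences its neighbours on the paternal chromosome, had 32.5 (24.2) in MP2_HDAC1_OE and 54.0 (58.0) in MP2_NTC, with summits 77 bp apart. *VPS9D1-AS1* had 39.4 (35.4) and 66.0 (73.2). *MEG9*, of the imprinted *DLK1* and *MEG3* locus, had a region at its 3′ end unique to MP2_NTC (percentile 58.6). The nearest MP2_HDAC1_OE peak was 172093 bp away. The difference was under 20 points at *EPB41L4A-AS1* (79.9 and 94.0), at *SBF2-AS1* (83.5 and 79.9) and at the strong region of *HCG11* (94.2 and 99.7).

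A further 6 lncRNAs of the list stood at percentile 68.6 or lower in MP2_HDAC1_OE. *JPX*, an X-linked lncRNA of the X inactivation centre, had a shared region with a signal of 45.9 in MP2_HDAC1_OE (percentile 49.0) and 74.96 in MP2_NTC (81.2), a difference of -32.1 points. *FTX*, of the same locus, had a region unique to MP2_HDAC1_OE at percentile 24.98, with an MP2_NTC peak 668 bp away. *DLEU1* had 2 shared regions, at percentiles 44.7 and 68.1 in MP2_HDAC1_OE and 58.2 and 44.2 in MP2_NTC. *DLEU2*, host of miR-15a and miR-16-1, also had 2, at 52.2 and 68.6 in MP2_HDAC1_OE and 37.2 and 78.1 in MP2_NTC. At *DLEU1* the second region thus ranked higher in MP2_HDAC1_OE by more than 20 points, and the other 3 of these 4 differed by less. *LINC00472* had 1 shared region (54.6 and 48.6). *FOXD2-AS1* had 1 unique to MP2_HDAC1_OE (20.5), with the nearest MP2_NTC peak 3389 bp away. The regions of *LINC00472* and *FOXD2-AS1* lay at 3′ ends.

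Chromosome 8 carries the lncRNAs that neighbour *MYC*. *PVT1* had 2 shared regions at its end nearer *MYC*, with percentiles of 68.8 and 88.6 in MP2_HDAC1_OE and 84.0 and 81.7 in MP2_NTC. A region at its other end was unique to MP2_HDAC1_OE (44.6). *CCAT1*, upstream of *MYC*, had 1 shared region (49.9 in MP2_HDAC1_OE and 31.6 in MP2_NTC), 2 unique to MP2_HDAC1_OE (46.6 and 58.8) and 1 unique to MP2_NTC (58.7). The region unique to MP2_NTC lay 367 bp from an MP2_HDAC1_OE peak. The strongest MP2_HDAC1_OE peak within 2 kb of it stood at percentile 97.1. *CASC21* had 1 region unique to MP2_HDAC1_OE (41.3) and 1 unique to MP2_NTC (20.9). The shared *PVT1* regions thus stood in the upper ranks of both lists. The *CCAT1* and *CASC21* regions themselves were in the middle or lower ranks, with the strong MP2_HDAC1_OE peak near *CCAT1* outside them.

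**Figure D5:**
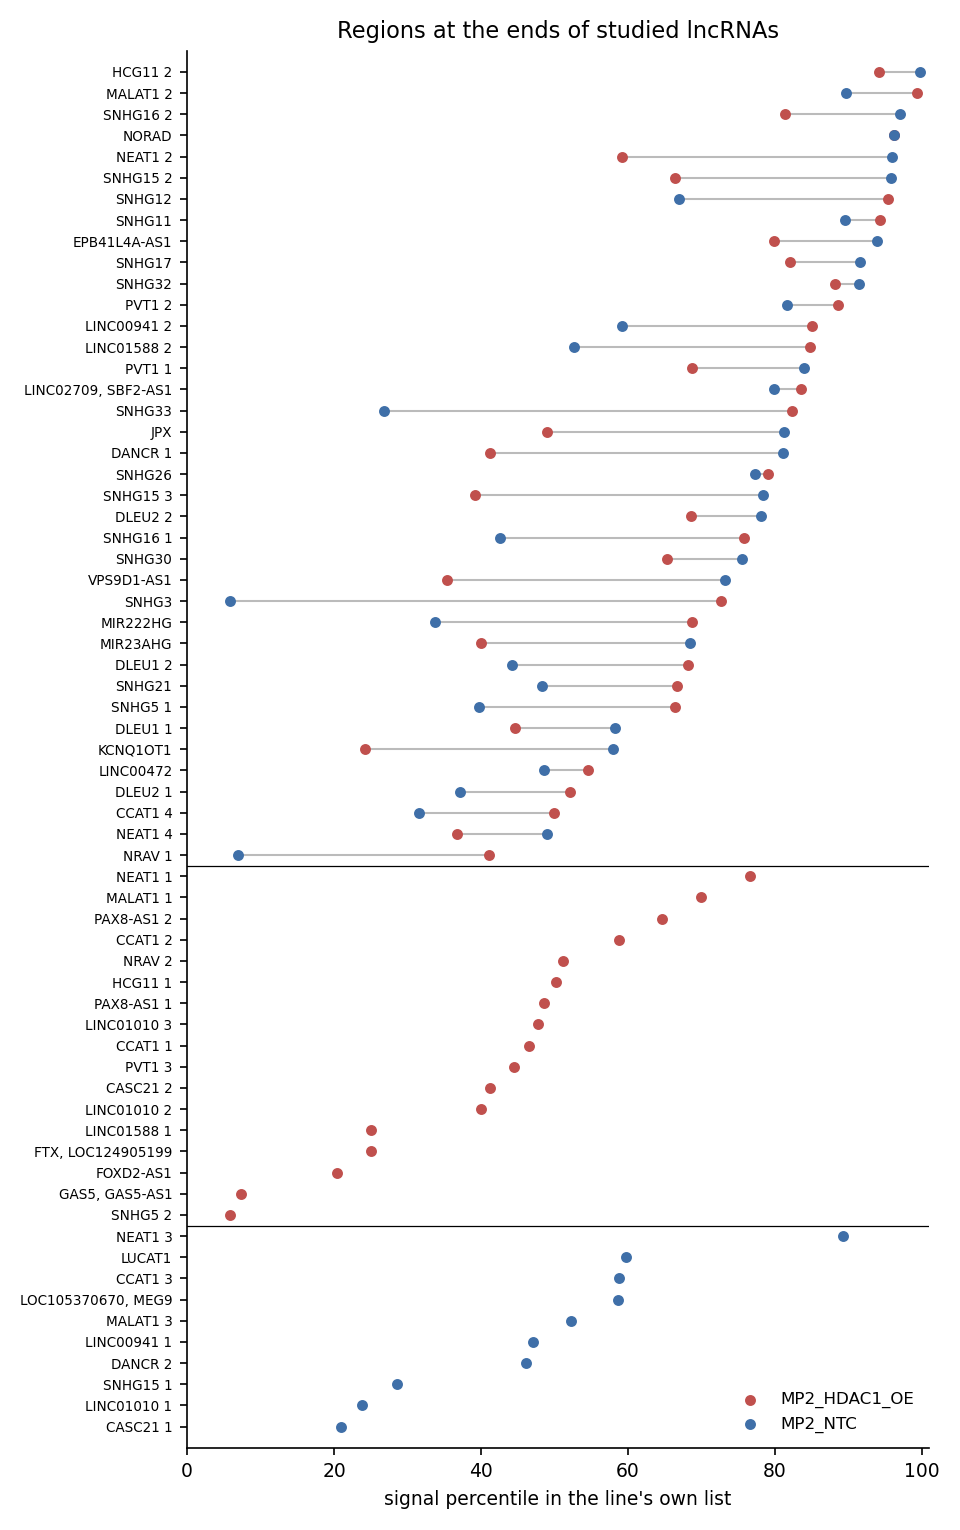
Signal percentile in the list of MP2_HDAC1_OE (red) and MP2_NTC (blue) for the 65 regions at the ends of 40 studied lncRNAs (y axis, numbered along the chromosome where an lncRNA has several). The upper block holds 38 shared regions with a line between both values, the middle block 17 unique to MP2_HDAC1_OE and the lower block 10 unique to MP2_NTC. *NORAD* has the same percentile in both lists.

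The strongest shared regions stood at the top of both lists. *EPC1-AS1*, antisense to a subunit gene of the NuA4 acetyltransferase complex, had a signal of 183 in MP2_HDAC1_OE and 152 in MP2_NTC (chr10:32346320-32347277). *LOC124901081* inside *MATR3* had 129 and 180, *MALINC1* 137 and 149, *LOC401261* 123 and 162, the region at *STAT4-AS1* 122 and 157, and *MKLN1-AS* 127 and 140. All 6 were at or above percentile 99.0 of either list. All but the *STAT4-AS1* region overlap the body of a coding gene.

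Most of the 6 strongest regions unique to MP2_HDAC1_OE had an MP2_NTC peak within 2 kb, against 38.3% of all 400. *LOC124901788* (chr7:155952027-155952761) had a signal of 131 (percentile 99.5), and an MP2_NTC peak lay 378 bp away. *LINC02736* (97.3, percentile 95.5), *LGALS8-AS1* (87.8, percentile 92.5) and *LOC124902477* (89.7, percentile 93.2) had MP2_NTC peaks at 1028, 180 and 1411 bp. *LOC124901796* (88.1, percentile 92.6) and *NALT1* (84.2, percentile 90.8), an lncRNA beside *NOTCH1*, had none within 2 kb, with the nearest MP2_NTC peaks at 7420 and 3493 bp. The *NALT1* region lay at its 3′ end.

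Of the 6 strongest regions unique to MP2_NTC, 4 had no MP2_HDAC1_OE peak within 2 kb. Over all 272 regions unique to MP2_NTC, 41.2% had one. With 6 regions per line, the lines cannot be compared in this. *LOC124902297* had a region at its 3′ end (chr9:134164981-134166164) with a signal of 132, above 98.6% of the MP2_NTC list. The nearest MP2_HDAC1_OE peak was 29018 bp away. *CLDN14-AS1* (chr21:36429709-36430727) had 118 (percentile 97.2), and the nearest was 43561 bp away. The region at *LINC00518* and *MIR5689HG* (91.3, percentile 90.6) was 3643 bp from an MP2_HDAC1_OE peak and *OSER1-DT* (110, percentile 95.9) was 2229 bp away. *LINC02449* (103, percentile 94.5) and *GNG12-AS1* (90.6, percentile 90.3) had one at 99 and 141 bp.

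Among shared regions the widest rank differences toward MP2_HDAC1_OE were at *LOC124902038* (percentiles 90.03 and 5.38), *LOC124902477* (80.02 and 1.72) and *LOC107986856* (99.4 and 23.2). These 3 regions overlap the bodies of *EXOSC4*, *LIPA* and *ZNF398*. *LINC03146* (68.8 and 5.50), *SNHG3* (72.7 and 5.78) and *LOC112268127* (79.3 and 16.7) followed. With peaks within 2 kb counted, MP2_NTC reached 78.0 at *LOC124902038* and 93.5 at *LINC03146*, and stayed at 1.72 at *LOC124902477*, 23.2 at *LOC107986856* and 24.1 at *LOC112268127*. The difference thus fell under 20 points at *LOC124902038*, turned at *LINC03146* and was still wide at the last 3.

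Toward MP2_NTC the widest were at *LINC00886* (3.61 in MP2_HDAC1_OE and 87.1 in MP2_NTC), *LINC01273* (4.86 and 84.9), *LINC01011* with *NQO2-AS1* (21.2 and 97.9), *LOC105378983* (22.6 and 92.7), *LINC00240* (14.7 and 79.8) and *HEXIM2-AS2* (29.998 and 90.4). With peaks within 2 kb, MP2_HDAC1_OE reached 79.3 at *LINC00886*, 70.9 at *LINC01011* and 98.1 at *LOC105378983*, 45.9 at *HEXIM2-AS2*, and stayed at 4.86 at *LINC01273* and 14.7 at *LINC00240*. All but *LINC00886* and *LOC105378983* still ranked higher in MP2_NTC by 20 points or more.

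Some lncRNAs carried a run of regions. *LOC124902477*, inside *LIPA*, had 5, of which 4 were unique to MP2_HDAC1_OE. *LNCATV* had 3 shared and 2 unique to MP2_NTC, *LOC124903385* 4 shared and 1 unique to MP2_NTC, and *OLMALINC* 1 shared and 2 unique to each line. The shared *OLMALINC* region was strong in both lists (percentiles 98.0 and 89.9), and its 4 unique regions lay within 533 bp of a peak of the other line. *DLGAP1-AS1* and *LINC00705* were among the 16 lncRNAs with 4 regions, and each had 3 shared and 1 unique to MP2_HDAC1_OE. In all, 823 of the 1075 lncRNAs had a single region.

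As a check of the labels, the strongest peak at an end of *HDAC1* itself was taken in each list. It stood at percentile 93.9 in MP2_HDAC1_OE (chr1:32291469-32291891) and 45.2 in MP2_NTC (chr1:32292210-32292433). These intervals do not overlap, and MP2_HDAC1_OE had 2 peaks there and MP2_NTC 3. Of all shared regions, 19.7% ranked higher in MP2_HDAC1_OE by 20 points or more, so this check is weak. The position of the peaks was checked against lncRNA ends too. Of the summits, 17.2% in MP2_HDAC1_OE and 18.5% in MP2_NTC lay within 1 kb of an lncRNA end, and 3.28% and 3.39% did after all peaks were moved by 100 kb.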

How the data were processed

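H3K27ac ChIP-sequencing was performed by the authors with the ENCODE pipeline in 2 samples and 2 no-antibody controls per line. They deposited 1 list of peaks per line that passed their reproducibility test (IDR optimal set, pooled over both samples). Per the submitters' processing notes the build was hg38, with BWA 0.7.12 and Picard 1.88 among the tools. The peak caller is not given in the sources used here. The deposited signal value of each peak comes from the caller and its scaling between lists is not stated, so percentiles within a list were compared. Deposited score columns were not used, and 0 columns of per-sample values were left out. Depth is unknown.

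Gene ends came from a RefSeq table (GRCh38.p14, 20033 coding and 18303 lncRNA genes), and strand and promoters from a RefSeq promoter table. Either end of a gene counted, with 2 kb outside and 1 kb inside. Shares have 95% Wilson intervals and differences Newcombe intervals. No test between lines was possible. The scripts were tested on simulated data.

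The lncRNAs named were those of a list of studied genes with a region, and all snoRNA and miRNA hosts by symbol. The miRNA hosts outside the list were added after their values were seen. Also named were the 6 strongest regions of each class, the 6 widest rank differences in each direction and the 6 lncRNAs with most regions. The regions, lists and rules were chosen with earlier results of these data known. Alternatives covered the overlap, the peak threshold, the window, the ends, the genes that remove a region, the signal of a region and the chromosomes. The scripts ran in Python 3.11.15 with scipy 1.17.1, pandas 2.3.3 and numpy 2.4.6, and figures were drawn with matplotlib 3.10.9.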

Additional observations from a re-analysis of the deposited data

How the results depend on the processing

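No paired analysis was possible because a deposited list combines the 2 samples of a line, and leaving out a sample could not be done either. The 8 results were recomputed under 13 alternatives, and 74 of 104 values stayed within 1.5 times the count or inside the interval of the main value. In all 13 the share unique to MP2_HDAC1_OE was above that unique to MP2_NTC. The others moved as follows. Single peaks with an overlap of 50% of both gave 2534 units, of which 38.3% were unique to MP2_HDAC1_OE, 31.5% unique to MP2_NTC and 30.2% shared. MP2_HDAC1_OE then had 54.9% of the unique ones, the median ranks were 46.7 and 49.6, and the median rank difference was -0.71. Gaps of up to 500 bp gave 27.6%, 18.5% and 53.9%. Gaps of up to 2 kb, chosen after seeing the data, gave 22.9%, 16.3% and 60.9%, with median ranks of 65.2 and 68.1. A window of 1 kb on both sides gave 27.3% unique to MP2_HDAC1_OE, 52.5% shared and a median rank of 60.9 in MP2_HDAC1_OE. A window of 5 kb outside gave 44.9% shared and a median rank of 57.6 in MP2_NTC. Annotated starts alone gave 828 regions, with 27.3% unique to MP2_HDAC1_OE, 52.5% shared and a median rank of 61.3 in MP2_HDAC1_OE. Removing any overlap with a coding gene left 791 regions. The 75% of peaks with the highest signal gave median ranks of 52.4 and 56.0, and summed signals 44.9 and 48.9. Starts-only used the strand of the promoter table, and lncRNAs without strand dropped out there. Joined gaps and single peaks change the units counted by construction, and the cause of the other moves was not tested. Depth limits which weak peaks pass, and it is unknown here.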

Other observations

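The 2430 regions that overlapped both an lncRNA end and a coding gene end were 66.3% shared (64.4 to 68.2), 18.4% unique to MP2_HDAC1_OE and 15.2% unique to MP2_NTC. The 7858 regions at a coding end and no lncRNA end were 61.8% shared (60.7 to 62.8), 20.7% unique to MP2_HDAC1_OE and 17.5% unique to MP2_NTC. Of the lncRNA genes, 2933 (16.0%) had a region of any kind in a window, and 1075 had one away from coding ends. Most of the 2933 thus had only regions that also lay at a coding end. Of the coding genes, 9722 of 20033 (48.5%) had a region.

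Regions at lncRNA ends were found on 23 chromosomes. The counts ran from 22 on chromosome 21 to 150 on chromosome 1. The MP2_HDAC1_OE share of unique regions was highest on chromosome 10, where 24 regions were unique to MP2_HDAC1_OE and 9 to MP2_NTC (72.7%, 55.8 to 84.9), and lowest on chromosome 14, with 8 and 12 (40.0%, 21.9 to 61.3). These intervals overlap.

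Regions at the ends of 2 or more lncRNAs (n = 115) were 58.3% shared (49.1 to 66.9), and those at 1 lncRNA (n = 1193) were 47.7% shared (44.9 to 50.5). Regions at 3′ ends alone had a median percentile of 51.5 in MP2_HDAC1_OE and 51.0 in MP2_NTC, below the 60.3 and 63.8 of regions at starts alone.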
